A study of Mus musculus with 2 samples.

Results

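Kinases, kinase partners and proteins of the cytoskeleton are described here across the cell classes of neonatal and adult mouse lung, through 10 of the 32285 genes counted, taken by symbol. They are Yes1, Dapk2, Cdk5r1, Map1b, Nes, Enah, Trip6, Fscn1, Rhoh and Cpne8. They were chosen because their levels were high in a neonatal dendritic cell (DC) subset of these same libraries, with Fscn1 added as a reference for DC maturation. The age differences within DC therefore chose the members and are given below as a description, without a test. Tests are given for the classes outside DC and for 172 related genes that are not members. The lists of related genes were chosen with earlier results of these data known.

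Live CD45.2+ YFP+ lung cells were sorted from mice 7 days old (neonatal) and 8 weeks old (adult) and profiled by droplet single-cell RNA sequencing. In both ages the strain was zbtb46-yfp. In such reporter mice Cre under the control of Zbtb46, a transcription factor of classical DC, switches on YFP permanently, so descendants of cells that once expressed it are labelled too. Each age had 2 pools of at least 5 mice, and each pool is 1 replicate, so n = 2 per age throughout.

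The pools of 1 age carried a hashtag each and were loaded together, so age and loading cannot be told apart. The cells kept numbered 4412 and 4444 in the neonatal and 2030 and 1854 in the adult pools, and their gene UMIs (unique transcripts counted) came to 19109019 and 18471786 in the neonatal and 8516333 and 7753160 in the adult pools. The sexes were not matched: Xist, the transcript of the inactive X, stood at 708 and 603 CPM (UMIs of a gene scaled to a common library total) in the neonatal pools against 0.235 and 0.129 CPM in the adult pools, and the Y-linked Ddx3y at 0.523 and 11.8 CPM against 69.7 and 76.6 CPM in adult cells. Age and sex cannot be told apart either. No barcode was shared between the pools of 1 age, and 14 were shared between ages.

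Cells were clustered without the 10 members and named from markers, so cDC1 below means cDC1-like, and likewise for the other classes. The cDC2, proliferating cDC2 and C1q macrophages came from 1 cluster, number 3, that held markers of both kinds and was divided by a finer clustering, a step chosen after seeing the data; 33 and 29 neonatal and 41 and 28 adult cells of it stayed unnamed. The sort held more than DC. The cDC1 numbered 736 and 684 in the neonatal and 312 and 231 in the adult pools, the cDC2 290 and 173 against 89 and 73, and the mature DC 524 and 521 against 112 and 103. Nonclassical monocytes, neutrophils and classical monocytes made up most of the rest. Mature DC carried Ccr7, the receptor that guides DC to lymph nodes, at 2461 and 2095 CPM in neonatal and 1730 and 1541 CPM in adult pools. The cDC1 carried Xcr1 at 368 and 402 CPM in neonatal and 308 and 283 CPM in adult pools. The cDC2 carried Mgl2 at 1779 and 1741 CPM in neonatal and 2078 and 2473 CPM in adult pools, and their markers Clec4a4 and Ccr6 were at or near 0.

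A DC that has matured leaves the tissue and crawls to the lymph node, which needs a rebuilt actin and microtubule skeleton. Src family kinases such as the Yes1 product relay signals from adhesion sites, the Dapk2 product is a calmodulin-regulated kinase linked to cell death and membrane blebbing, and the Cdk5r1 product p35 switches on the kinase Cdk5. Map1b binds microtubules and is best known from growing axons, and Nes codes for nestin, an intermediate filament of neural progenitors. Enah extends actin filaments at the leading edge, and Trip6 is a LIM protein of the zyxin family at adhesion sites. Fscn1, fascin, bundles actin into the spikes of mature DC. Rhoh codes for a protein of blood cells that serves T cell receptor signalling, and Cpne8 is a copine, a protein that binds membranes in a calcium-dependent way.

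Promoter windows are shown for 2 members high in neonatal mature DC, Yes1 and Map1b, and for the maturation reference Fscn1, so that they can be compared base by base. Each window holds the 250 bases before the RefSeq start on GRCm38.p6, 5′ to 3′ on the gene's strand, and capitals mark the GC box GGGCGG on either strand.
Yes1, chr5:32610921-32611170, plus strand: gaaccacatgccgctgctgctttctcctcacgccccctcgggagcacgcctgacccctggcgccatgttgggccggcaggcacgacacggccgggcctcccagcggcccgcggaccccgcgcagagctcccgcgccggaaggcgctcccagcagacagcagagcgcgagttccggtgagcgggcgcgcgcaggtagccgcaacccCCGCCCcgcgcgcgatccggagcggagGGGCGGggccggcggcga
Map1b, chr13:99516603-99516852, minus strand: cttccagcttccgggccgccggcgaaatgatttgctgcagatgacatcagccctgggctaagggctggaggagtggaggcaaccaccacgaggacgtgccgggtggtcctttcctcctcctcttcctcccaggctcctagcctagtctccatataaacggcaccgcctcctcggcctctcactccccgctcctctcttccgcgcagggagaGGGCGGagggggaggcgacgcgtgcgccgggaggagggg
Fscn1, chr5:142960105-142960354, plus strand: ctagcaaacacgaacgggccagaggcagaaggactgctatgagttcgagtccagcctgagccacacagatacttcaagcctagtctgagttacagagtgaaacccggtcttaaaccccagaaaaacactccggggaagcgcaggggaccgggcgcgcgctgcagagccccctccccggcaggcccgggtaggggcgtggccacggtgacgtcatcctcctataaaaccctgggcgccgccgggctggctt
The Yes1 window held 2 GC boxes, the Map1b window 1 and the Fscn1 window 0. Of the 9 members with a window, 7 held GGGCGG on either strand, against 32.7% of all 32851 windows of the same length. The members' windows were also richer in G and C bases, at 50.8% (Rhoh) to 84.8% (Enah). The median over all windows was 52.4%, and the Rhoh window alone lay below it. The part of base content in the GC box share was not tested. The E-box CACGTG was in 1 of the 9 (Trip6, 2 matches) and in 6.02% of all windows, and the NF-kB motif GGGNNTTCC in 1 (Dapk2) and in 4.98% of all windows. The ETS motif ACCGGAAG, the AP-1 motif TGANTCA and the ISRE motif GAAANNGAA were in 0 of the 9 windows, and in 1.72%, 6.75% and 7.13% of all windows. A match is a run of letters and says nothing of binding. On GRCm38, the members lie on chromosomes 1, 3, 5, 9, 11, 13 and 15, and 4 of them (Yes1, Rhoh, Trip6, Fscn1) are on chromosome 5, far apart. All 10 are protein coding, and Enah, Yes1, Map1b and Cpne8 overlap other annotated genes.

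Neonatal mature DC held the highest levels of Yes1, Cdk5r1 and Fscn1 among the neonatal classes with 20 or more cells in every pool. Among the adult classes this held for Fscn1 alone: Cdk5r1 was higher in adult neutrophils and Yes1 in 1 adult pool of T cells, at 30.9 CPM. Yes1, the Src family kinase, stood at 197 and 178 CPM in neonatal mature DC, against 8.53 and 10.3 CPM in adult mature DC. The neonatal mean was 188 ± 13 CPM and the adult mean 9.44 ± 1.28 CPM (SD, n = 2 pools each). The pooled ratio, neonatal over adult, was 19.9 (exact 95% counting interval 11.6 to 37.5), from 438 and 407 UMIs in the neonatal and 6 and 7 UMIs in the adult pools. The pools of the ages did not overlap. Intervals here and below cover counting error only.

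Per cell, Yes1 was seen in 43.5% and 42.0% of neonatal mature DC, against 4.46% and 4.85% of adult mature DC. The adult cells were the deeper ones, with medians of 4018 and 4295 UMIs in neonatal and 6317 and 6284 UMIs in adult pools. With each cell thinned to 1500 UMIs the shares were 23.7% and 21.1% in neonatal and 0.901% and 0% in adult mature DC, where 0 of 101 cells allow a share of up to 2.97%. In neonatal cDC2, a class with little Yes1, thinned shares were 0% and 1.16%.

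Cdk5r1, the activator of Cdk5, stood at 62.5 and 64.9 CPM in neonatal mature DC, against 0 and 4.43 CPM in adult mature DC. The adult values were 0 and 3 UMIs, and a count of 0 in the first adult pool allows up to 4.27 CPM. The pooled ratio was 29.3 (9.92 to 143). Cpne8, the copine, stood at 48.1 and 47.4 CPM in neonatal and 2.84 and 4.43 CPM in adult mature DC, a ratio of 13.2 (5.56 to 41.0). Map1b, the microtubule protein, stood at 27.0 and 24.1 CPM in neonatal and 0 and 1.48 CPM in adult mature DC. Its ratio of 35.2 rests on 1 adult UMI, so its interval runs from 6.20 to 1403. In each of these 3 genes both neonatal pools were above both adult pools.

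Fscn1 behaved differently from these in size. It was high at both ages, at 2974 and 2685 CPM in neonatal and 1680 and 1786 CPM in adult mature DC, a ratio of 1.63 (1.56 to 1.71). Fascin transcripts were seen in 95.6% and 94.0% of neonatal and 87.5% and 85.4% of adult mature DC. In neonatal nonclassical monocytes, which are not known for fascin, the share was 3.52% and 3.75%, at median depths of 2527 and 2722 UMIs. The other 5 members were under 10 CPM in mature DC of either age. Both neonatal pools lay above both adult pools in 10 of the 10 members, 5 of which passed the count filter, against 38.3% of all genes that passed it. Nothing is read from this count, since the members were picked on this contrast.

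**Figure D1:**
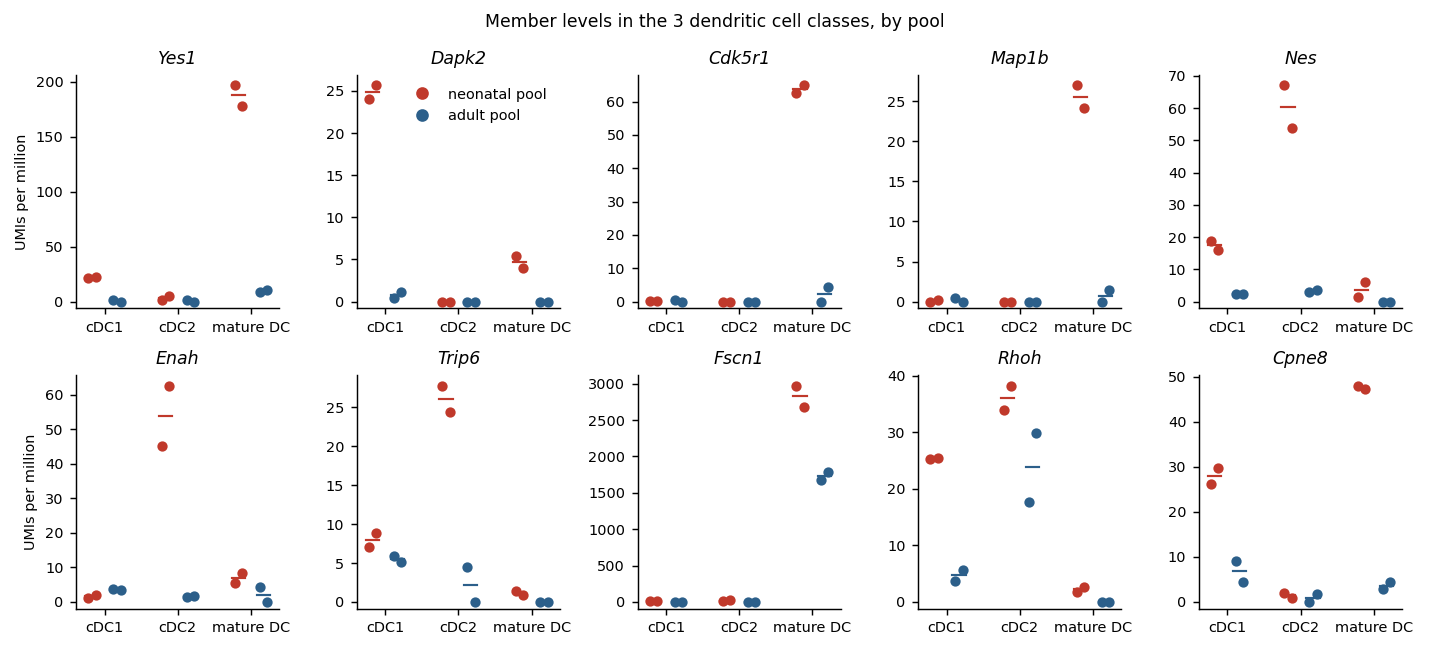
Level of each member in CPM (vertical axis, its own scale per gene) in cDC1, cDC2 and mature DC; points are pools, bars the mean of 2 pools, neonatal on the left of adult. Yes1, Cdk5r1, Map1b and Cpne8 peak in neonatal mature DC, Nes, Enah and Trip6 in neonatal cDC2, and Dapk2 in neonatal cDC1.

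The mature DC of the ages fell mostly into different clusters. Cluster 4 held 76.7% of neonatal and 6.05% of adult mature DC, and was led by Gclc, Fscn1, Synpo2 and Ccr7. Cluster 11 held 20.8% of neonatal and 94.0% of adult mature DC, and was led by Ccl22, Apol7c, Fabp5 and Il4i1. Markers of cDC1 were also higher in neonatal mature DC, with a summed level of 1300 and 1076 CPM over 10 markers, against 395 and 315 CPM in adult pools. Their part in the member levels was not tested.

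Within cluster 11 (97 and 120 neonatal, 107 and 95 adult cells), Yes1 stood at 47.7 and 40.7 CPM in neonatal and 7.38 and 11.01 CPM in adult cells. The ratio was 4.80 (2.53 to 9.87), smaller than over the whole class, and the pools still did not overlap. Cdk5r1 stood at 13.4 and 21.1 CPM in neonatal and 0 and 4.72 CPM in adult cells of cluster 11. Fscn1 ran the other way there, at 1302 and 1400 CPM in neonatal and 1664 and 1733 CPM in adult cells, a ratio of 0.799 (0.749 to 0.852). In cluster 4, neonatal cells had 3505 and 3240 CPM of Fscn1, and the 5 and 8 adult cells 2089 and 2609 CPM. There neonatal Yes1 stood at 246 and 240 CPM and Map1b at 35.8 and 32.9 CPM. Of the 60 and 55 Map1b UMIs in neonatal mature DC, 60 and 52 came from cluster 4 and 0 from cluster 11.

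**Figure D2:**
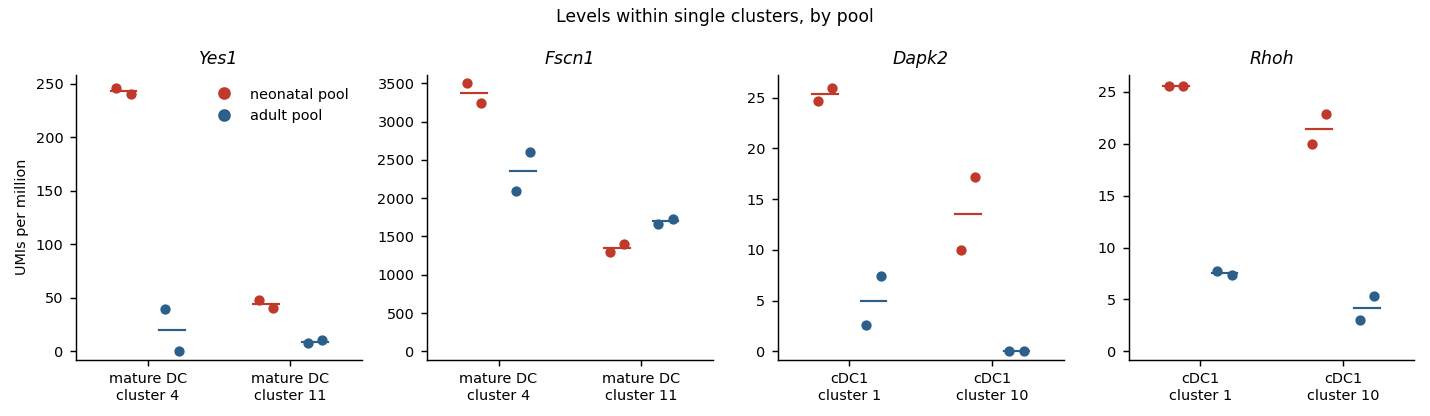
Levels in CPM within the 2 main clusters of mature DC (Yes1, Fscn1) and of cDC1 (Dapk2, Rhoh); points are pools, bars the mean of 2 pools, neonatal on the left of adult. In cluster 11 Yes1 stays above the adult pools while Fscn1 lies below them.

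In cDC1, the subset that cross-presents antigen, 7 of the 10 members had both neonatal pools above both adult pools. The share was 34.1% of all genes that passed the count filter, which 8 of the members did. This count is not read as a result, since the members were picked on neonatal DC levels. Neonatal levels of Dapk2, Nes, Rhoh and Trip6 were higher in cDC1 than in mature DC, and those of Yes1, Cdk5r1, Map1b, Enah, Cpne8 and Fscn1 lower. Enah was the exception in direction, at 1.03 and 2.16 CPM in neonatal and 3.77 and 3.40 CPM in adult cDC1. Dapk2, the calmodulin-regulated kinase, stood at 24.1 and 25.7 CPM in neonatal and 0.419 and 1.13 CPM in adult cDC1, from 117 and 119 against 1 and 2 UMIs. Its ratio was 34.4 (11.6 to 168).

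Yes1 stood at 21.4 and 21.99 CPM in neonatal and 1.26 and 0 CPM in adult cDC1, a ratio of 30.01 (10.1 to 147) on 3 adult UMIs. Fscn1, a tracer of free RNA from mature DC, averaged 8.95 CPM in neonatal cDC1 and 2828 CPM in neonatal mature DC, and Yes1 scaled in that proportion is 0.593 CPM; the part of free RNA was not tested. Rhoh stood at 25.3 and 25.4 CPM in neonatal and 3.77 and 5.67 CPM in adult cDC1 (ratio 5.54, 3.47 to 9.37). Cpne8 stood at 26.1 and 29.7 CPM in neonatal and 9.21 and 4.54 CPM in adult cDC1 (ratio 3.86, 2.64 to 5.84). Nestin transcripts stood at 18.7 and 16.2 CPM in neonatal and 2.51 and 2.27 CPM in adult cDC1 (ratio 7.26, 3.85 to 15.4). Trip6 stood at 7.00 and 8.84 CPM in neonatal and 5.86 and 5.10 CPM in adult cDC1, and its counting interval of 0.883 to 2.38 includes no change.

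The cDC1 of the ages also sat in different clusters. Cluster 1 held 96.4% of the neonatal and 16.9% of the adult cells. Cluster 10, with Cldn1, Plet1 and Epcam as its leading genes, held 3.59% of the neonatal and 83.1% of the adult cells. Within cluster 1, Dapk2 stood at 24.7 and 25.99 CPM in neonatal and 2.58 and 7.40 CPM in adult cells, and Rhoh at 25.5 and 25.5 CPM in neonatal and 7.75 and 7.40 CPM in adult cells. Within cluster 10, Rhoh stood at 19.99 and 22.9 CPM in neonatal and 2.998 and 5.36 CPM in adult cells, and Yes1 at 29.99 and 17.2 CPM in neonatal and 1.499 and 0 CPM in adult cells. The neonatal pools were above the adult pools for each of these genes in each cluster named, with 24 to 51 cells in the smaller pools. Proliferating cDC1 of neonates, 133 and 112 cells, had 22.3 and 14.7 CPM of Yes1, 19.7 and 27.3 CPM of Dapk2 and 36.0 and 39.9 CPM of Nes.

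In cDC2, a subset that primes CD4 T cells, the filament and adhesion genes stood out. Nestin transcripts stood at 67.1 and 53.9 CPM in neonatal and 2.96 and 3.53 CPM in adult cDC2, from 128 and 62 against 2 and 2 UMIs, a ratio of 19.3 (7.42 to 71.6). Enah, the actin extender, stood at 45.1 and 62.6 CPM in neonatal and 1.48 and 1.76 CPM in adult cDC2, a ratio of 32.1 (8.74 to 268) on 2 adult UMIs. Trip6 stood at 27.8 and 24.4 CPM in neonatal and 4.44 and 0 CPM in adult cDC2, a ratio of 10.98 (3.62 to 54.3). Each of the 3 had both neonatal pools above both adult pools. With cluster 3 left undivided, the log2 ratio was 3.96 for Nes, 4.96 for Enah and 4.04 for Trip6.

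Rhoh differed less, at 34.1 and 38.3 CPM in neonatal and 17.7 and 29.99 CPM in adult cDC2 (ratio 1.53, 1.01 to 2.39). Dapk2, Cdk5r1 and Map1b had 0 UMIs in the cDC2 of all 4 pools. Of the 10 members, 5 had both neonatal pools above both adult pools in cDC2. The share was 40.6% of all genes that passed the count filter, which 4 of the members did. This count too is not read as a result, since the members were picked on neonatal DC levels. Proliferating cDC2 of neonates, 43 and 23 cells, had 118 and 136 CPM of Nes, above the 2 neonatal pools of cDC2, and 27.6 and 39.7 CPM of Trip6. Proliferation markers left within the cDC2 class summed to 238 and 167 CPM over 9 markers in neonatal against 79.9 and 38.8 CPM in adult pools, and markers of epithelial cells to 61.8 and 93.1 CPM over 7 markers against 4.44 and 5.29 CPM in adult cells. Erythroid markers summed to 19.9 and 1774 CPM over 5 markers in neonatal and 4.44 and 5.29 CPM in adult cDC2. Their part in these levels was not tested.

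Outside DC the members could be tested, in 7 classes with 20 or more cells in every pool. The test was edgeR's quasi-likelihood test on summed UMIs, with Benjamini-Hochberg adjustment over all genes of a class and 0.05 as the threshold. The pools were prepared independently of each other, per the study's design text. The p-values rest on the spread between 2 pools per age, which edgeR moderates over all genes of a class. Because the pools of 1 age were loaded together, that spread leaves out differences between loadings. Of the 10 members, 5 passed the count filter in nonclassical monocytes, 4 in neutrophils, 3 in classical monocytes, 2 each in C1q macrophages, in mast cells and basophils and in NK cells, and 1 in T cells.

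Nes rose in neonatal nonclassical monocytes, the patrolling monocytes, which were present in the YFP+ sort. It stood at 66.3 and 57.5 CPM in neonatal and 2.35 and 2.25 CPM in adult cells. The UMIs were 254 and 250 against 2 and 2, and these adult counts alone would not have passed the count filter. The log2 fold change was 4.61 ± 0.38 (SE, n = 2 pools per age), with an edgeR adjusted p of 7.82e-13, and the raw ratio was 26.8 (10.4 to 98.7). It kept its call under each alternative in which it was fitted, with log2 fold changes between 3.99 and 6.18. Within the neonatal class the level was 87.0 and 76.8 CPM in cluster 0 and 18.1 and 14.3 CPM in cluster 7, while 96.0% of the adult cells were in cluster 9. Nestin is also made by vessels. The endothelial genes Cldn5, Egfl7, Ramp2 and Cdh5 together averaged 5.63 CPM in neonatal nonclassical monocytes and 5238 CPM in neonatal endothelial cells. The 10 endothelial markers summed to 85.6 and 73.9 CPM in neonatal and 31.7 and 45.1 CPM in adult cells, and their part in the Nes difference was not tested.

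Altogether 4 members were called in nonclassical monocytes, where 18.4% of the 8978 genes tested were called. Yes1 rose to 7.31 and 8.75 CPM in neonatal cells, from 28 and 38 UMIs, against 0 UMIs in both adult pools (edgeR adjusted p = 0.000352). Against a floor of 3 counts over the adult pools it was at least 4.68-fold higher. With no adult UMI, Yes1 passed the count filter through the neonatal pools alone, so little weight rests on its call. The adult counts of Nes, Fscn1 and Trip6 alone would not have passed that filter either, so their calls share this limit. The class totals were 3832794 and 4344664 UMIs in the neonatal and 851447 and 886927 UMIs in the adult pools. Fscn1 rose too, at 13.6 and 13.6 CPM in neonatal and 3.52 and 2.25 CPM in adult cells (log2 fold change 2.11 ± 0.52, edgeR adjusted p = 0.00231; 0.0749 without adult pool 2). Trip6 stood at 7.57 and 6.91 CPM in neonatal and 1.17 and 2.25 CPM in adult cells (1.92 ± 0.68, edgeR adjusted p = 0.0437), and its adjusted p was 0.269 without adult pool 1 and 0.129 without adult pool 2. With neonatal pool 1 or neonatal pool 2 left out, Yes1 and Trip6 no longer passed the count filter and 2 members were called. Rhoh did not pass, at 18.5 and 17.3 CPM in neonatal and 10.6 and 24.8 CPM in adult cells (edgeR adjusted p = 0.863).

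Markers of mature DC moved with these results. Their 12 markers, Fscn1 not among them, summed to 326 and 276 CPM in neonatal and 134 and 139 CPM in adult nonclassical monocytes, with Ccr7 at 17.2 and 17.7 CPM against 1.17 and 5.64 CPM in adult cells. Yes1 of mature DC scaled by the Fscn1 found in neonatal nonclassical monocytes is 0.900 CPM. The part of mature DC and of free RNA in the Yes1 and Fscn1 results was not tested. Fscn1 itself stood between 7.33 and 27.4 CPM in the neonatal cDC1, nonclassical monocytes, classical monocytes and neutrophils. Erythroid markers, 5 in all, summed to 329 and 819 CPM in neonatal and 9.40 and 12.4 CPM in adult nonclassical monocytes, and their part was not tested.

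In neutrophils, 2 members were called, where 32.1% of 5781 genes were. Neither would have passed the count filter on its adult pools alone. Yes1 rose to 19.6 and 16.8 CPM in neonatal neutrophils, against 2.02 and 6.87 CPM in adult neutrophils (log2 fold change 2.07 ± 0.51, edgeR adjusted p = 0.00137; 0.0765 without adult pool 1). Yes1 of mature DC scaled by the Fscn1 in neonatal neutrophils is 1.78 CPM. Fscn1 stood at 27.4 and 26.5 CPM in neonatal and 9.09 and 18.3 CPM in adult neutrophils (1.04 ± 0.36, edgeR adjusted p = 0.0218; 0.0616, 0.122 and 0.369 without neonatal pool 1, neonatal pool 2 or adult pool 1). Cdk5r1 missed the threshold, at 22.2 and 17.6 CPM in neonatal and 9.09 and 11.5 CPM in adult neutrophils (0.97 ± 0.40, edgeR adjusted p = 0.0613). The neutrophils of the ages sat in different clusters. Cluster 2 held 0.725% of the neonatal and 100% of the adult cells, while clusters 6 and 15, with 76.3% and 23.0% of the neonatal cells, held no adult cell, and cluster 15 was led by Camp, Ngp and Ltf. Markers of mature DC summed to 303 and 301 CPM in neonatal and 150 and 171 CPM in adult neutrophils. The part of these clusters, of mature DC and of free RNA in the neutrophil results was not tested.

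In classical monocytes, where 15.8% of 8098 genes were called, 1 member was, Fscn1. It stood at 14.5 and 10.2 CPM in neonatal and 0 and 1.64 CPM in adult cells (3.63 ± 0.71, edgeR adjusted p = 0.000185). The UMIs were 27 and 17 against 0 and 2. Fscn1 thus passed the count filter through the neonatal pools alone, so little weight rests on its call. Cluster 5 held 98.0% of the neonatal and 6.42% of the adult classical monocytes, and cluster 12 held 2.01% of the neonatal and 93.6% of the adult ones. Markers of mature DC summed to 285 and 259 CPM in neonatal and 181 and 184 CPM in adult classical monocytes, and markers of neutrophils to 1208 and 1475 CPM in neonatal and 193 and 212 CPM in adult ones. Their part in the Fscn1 result was not tested.

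Dapk2 was highest outside DC. In mast cells and basophils it rose to 109 and 102 CPM in neonatal cells, against 27.2 and 11.03 CPM in adult cells. The UMIs were 27 and 35 against 3 and 1, and these adult counts alone would not have passed the count filter. The log2 fold change was 2.32 ± 0.58 (edgeR adjusted p = 0.0143), and it was the 1 member called of the 2 tested, where 7.24% of 2582 genes were called and 3.29% were higher in neonates. The adjusted p was 0.465 without neonatal pool 1, 0.524 without neonatal pool 2 and 0.103 without adult pool 2. The 12 markers of mature DC summed to 352 and 360 CPM in neonatal and 263 and 1578 CPM in adult mast cells and basophils. Fscn1 stood there at 4.05 and 17.6 CPM in neonatal and 0 and 408 CPM in adult pools. The part of mature DC in the Dapk2 result was not tested. In NK cells Dapk2 stood at 69.3 and 61.4 CPM in neonatal and 73.4 and 100.4 CPM in adult cells, with a log2 fold change of -0.44 ± 0.31 that did not pass (edgeR adjusted p = 0.453).

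Among the 7 classes tested, Rhoh was highest in T cells, but it was not confined to lymphocytes. Mast cells and basophils had 64.7 and 93.6 CPM in neonatal and 63.5 and 55.2 CPM in adult pools. C1q macrophages had 71.2 and 18.2 CPM in neonatal and 67.4 and 37.5 CPM in adult pools. Rhoh passed the test in 0 of the 7 classes by edgeR and in 0 by DESeq2. The latter gave no adjusted p in C1q macrophages or in mast cells and basophils. At the adjusted threshold, 9.52% of 6085 genes (4.78% higher in neonates) were called in NK cells and 4.52% of 2544 genes (0.786% higher) in T cells. The unadjusted edgeR p of Rhoh was 0.0165 in NK cells and 0.0137 in T cells, and neither passed after adjustment. In T cells it stood at 262 and 193 CPM in neonatal and 266 and 340 CPM in adult cells (-0.63 ± 0.23, edgeR adjusted p = 0.144; 0.0356 without neonatal pool 1). In NK cells it stood at 108 and 52.6 CPM in neonatal and 130 and 116 CPM in adult cells (-0.76 ± 0.29, edgeR adjusted p = 0.115; 0.0184 without neonatal pool 1). Rag1+ T cells, found in neonatal pools only (27 and 13 cells), had the highest Rhoh of the named classes, 407 and 473 CPM. Innate lymphoid cells had 94.9 and 98.6 CPM in neonatal and 133 and 150 CPM in adult pools. Neonatal cDC1 were thus below lymphocytes of either age in Rhoh.

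In C1q macrophages 0 of the 2 members tested were called by edgeR, where 5.78% of 2957 genes were called and 2.23% were higher in neonates. The unadjusted edgeR p was 0.00988 for Nes and 0.582 for Rhoh, and neither passed after adjustment. Nes stood there at 81.4 and 58.2 CPM in neonatal and 33.7 and 5.36 CPM in adult cells (1.91 ± 0.71, edgeR adjusted p = 0.110; 0.0162 without adult pool 1). Enah stood at 25.4 and 47.3 CPM in neonatal and 0 and 5.36 CPM in adult C1q macrophages but did not pass the filter. Alveolar macrophages, present in neonatal pools only (55 and 41 cells), had 50.9 and 50.9 CPM of Cpne8, close to the level in neonatal mature DC. Endothelial cells, 27 and 36 in neonatal and 4 and 3 in adult pools, had the highest neonatal Nes of any class, 246 and 219 CPM, and neonatal Map1b of 40.9 and 97.2 CPM and Cpne8 of 116 and 158 CPM.

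**Figure D3:**
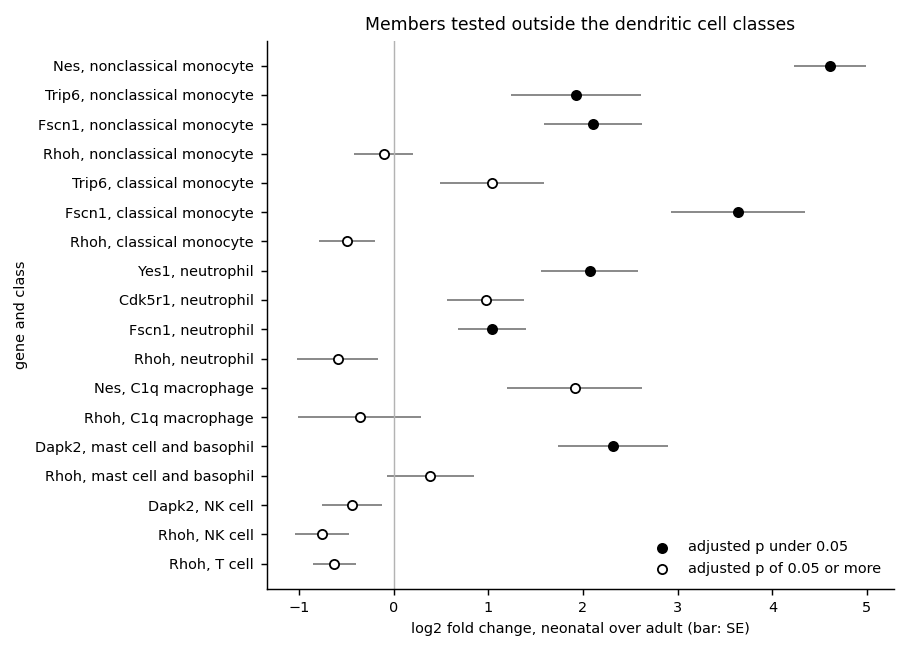
Log2 fold change, neonatal over adult (horizontal axis, bars are SE), of each member that passed the count filter in a class outside DC and had UMIs at both ages; filled points passed an edgeR adjusted p of 0.05. Nes in nonclassical monocytes is the largest at 4.61, and Rhoh lies on both sides of 0 with no filled point.

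Across classes, the members did not share 1 pattern. Over 52 sums of class and pool with shared libraries, the log2 levels of Yes1 and Map1b had a Pearson r of 0.63, those of Nes and Trip6 0.68, and those of Rhoh and Map1b -0.52. These r values describe levels of unequal depth and carry no p. The genes most like Yes1 over the same sums were Pxdn (0.72), Eva1a (0.66) and Atp11a (0.64), and those most like Map1b were Eva1a (0.87), Mtss2 (0.87) and Flt4 (0.86). For Fscn1 they were Lad1 (0.87), Dscaml1 (0.86) and Adcy6 (0.85), and for Nes Tspan9 (0.78), Mxra7 (0.78) and Phactr1 (0.75). Tspan9 also led for Trip6 (0.68), followed by Tcea3 (0.64) and Vrk1 (0.62). For Enah they were Plxdc2 (0.64), Gpc6 (0.61) and Erc2 (0.57). For Dapk2 they were Wdr95 (0.73), Cma1 (0.70) and Cst7 (0.68), for Cdk5r1 Ankrd33b, Atxn7l1 and Gal3st2 (0.69 each), for Rhoh Sash3 (0.78), Acyp1 (0.75) and Rasal3 (0.74), and for Cpne8 Plpp1 (0.82), Kazn (0.81) and Ttc39a (0.81).

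**Figure D4:**
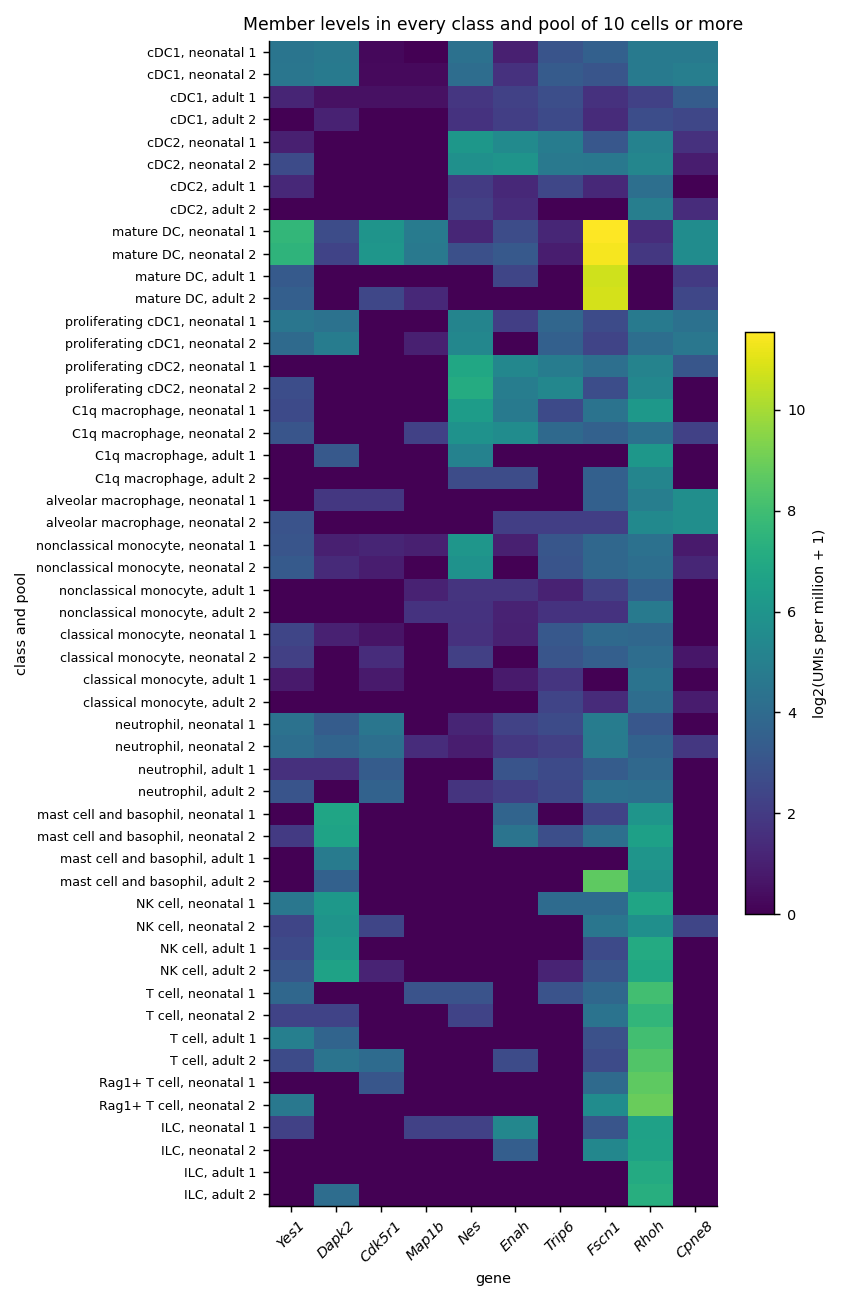
Level of each member (columns) by class and pool of 10 cells or more (rows), as log2(CPM + 1) by colour. Endothelial cells, B cells and unnamed cells are not drawn. Neonatal endothelial cells had more Nes, Map1b and Cpne8 than the neonatal DC classes. Yes1, Cdk5r1 and Map1b are bright in neonatal mature DC. Nes and Enah are bright in neonatal cDC2, proliferating cDC2 and C1q macrophages, and Nes also in neonatal nonclassical monocytes. Dapk2 is bright in mast cells and basophils and in NK cells. Rhoh is brightest in Rag1+ T cells and T cells, and also bright in other lymphocytes, mast cells and basophils and C1q macrophages.

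The relatives of the members were tested within DC, as 172 genes on 10 lists of kinases and cytoskeletal proteins that hold no member. Because the lists were chosen with earlier results of these data known, their counts are not an independent test. In mature DC 131 of them were tested, and 24 were higher and 20 lower in neonates, 18.3% and 15.3%, against 14.3% and 15.3% of all 7638 genes tested. Their median log2 fold change was 0.01, against -0.01 over all genes. With neonatal pool 1 or neonatal pool 2 left out, 10 and 11 genes were lower. Of 17 tubulins and microtubule-associated proteins tested, 8 rose and 3 fell (median 0.50). Tubb2b, a tubulin of young neurons, rose to 314 and 343 CPM in neonatal mature DC, against 69.7 and 57.6 CPM in adult mature DC (2.25 ± 0.15, edgeR adjusted p = 5.10e-12). Tubb5 rose to 593 and 619 CPM against 269 and 259.97 CPM in adult cells, and Tuba1a to 556 and 502 CPM against 311 and 259.97 CPM in adult cells.

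Of 9 Src family kinases and regulators, 1 rose and 2 fell in mature DC. The one that rose was Src, the founding member of the family of Yes1, at 111 and 90.3 CPM in neonatal and 25.6 and 11.8 CPM in adult mature DC (2.31 ± 0.26, edgeR adjusted p = 7.96e-08). Cbl, a ubiquitin ligase that curbs such kinases, fell to 74.6 and 79.8 CPM in neonates against 124 and 124 CPM in adult cells. Of 11 death-associated and related kinases, 1 rose and 1 fell. Dapk1, a close relative of Dapk2, fell to 16.6 and 8.77 CPM in neonates against 86.8 and 53.2 CPM in adults (-2.57 ± 0.29, edgeR adjusted p = 2.44e-07). Of the 29 actin bundling and branching genes 3 rose and 2 fell. Actn1, which cross-links actin, rose to 437 and 453 CPM in neonatal mature DC against 171 and 180 CPM in adult cells, and Tmsb4x, which holds free actin, fell by 0.44 on the log2 scale. Of 12 Ena/VASP and zyxin family proteins and partners 2 rose (Lpp by 1.35 and Pxn by 1.27 on the log2 scale) and 4 fell, among them Tes, which fell by 1.27 on the log2 scale. Of the 8 relatives of Cdk5 and the 3 copines tested, 0 passed in edgeR.

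In cDC1 134 of the 172 genes were tested, 21 rose and 39 fell in neonates, 15.7% and 29.1%, against 11.3% and 14.7% of all 9738 genes (median -0.08 against 0.00). Actin genes made up most of those that rose: 10 of 27 actin bundling and branching genes rose and 3 fell, and 6 of 12 Ena/VASP and zyxin family proteins and partners rose and 2 fell. Wtip, a LIM protein like Trip6, rose to 36.4 and 37.1 CPM in neonatal cDC1, against 9.63 and 13.6 CPM in adult cDC1 (1.64 ± 0.20, edgeR adjusted p = 2.49e-09). Cfl1, cofilin, rose to 1148 and 1176 CPM against 851 and 826 CPM in adult cells. Vim, the filament protein vimentin, fell to 1659 and 1566 CPM in neonatal cDC1, against 3481 and 3758 CPM in adult cDC1 (-1.21 ± 0.04, edgeR adjusted p = 4.87e-30), and Plec, which links filaments to other structures, fell by 1.91 on the log2 scale. Of 10 Src family kinases and regulators 0 rose and 5 fell, Fgr by 2.17 and Pag1 by 2.12 on the log2 scale. Of 17 tubulins and microtubule proteins 1 rose and 6 fell, and Tuba1a fell to 65.0 and 59.1 CPM in neonatal cDC1, against 151 and 174 CPM in adult cells. Death-associated and related kinases had 1 that rose (Camk1d) and 5 that fell of 12, relatives of Cdk5 1 that fell of 9, and copines 1 that fell (Cpne2) of 3.

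In cDC2 122 of the 172 genes were tested, and 11 rose and 12 fell in neonates, 9.02% and 9.84%, against 4.96% and 8.61% of all 7259 genes. With 1 pool left out, 6 to 8 rose and 3 to 10 fell: 6 rose without neonatal pool 1 or adult pool 1, 3 fell without neonatal pool 1 and 6 fell without adult pool 2. Actn1 rose to 128 and 127 CPM in neonatal cDC2, against 50.3 and 33.5 CPM in adult cDC2 (1.41 ± 0.19, edgeR adjusted p = 8.71e-10), and Cfl1 to 1353 and 1305 CPM against 853 and 847 CPM in adult cells. They were among 3 of 27 actin genes that rose and 0 that fell. Of 15 tubulins and microtubule proteins 4 rose and 1 fell, and of 12 Ena/VASP and zyxin family proteins and partners 3 rose and 0 fell. Tubb4b rose to 69.7 and 43.5 CPM in neonatal cDC2, against 13.3 and 26.5 CPM in adult cells (1.43 ± 0.30, edgeR adjusted p = 0.000135; 0.0679 without neonatal pool 1 and 0.0516 without adult pool 1), and Raph1, which recruits Enah to membranes, to 81.2 and 83.5 CPM against 28.1 and 47.6 CPM in adult cells (edgeR adjusted p = 0.000524; 0.190 without adult pool 1). Dapk1 fell to 116 and 123 CPM against 157 and 180 CPM in adult cells, and Vim fell by 0.27 on the log2 scale (edgeR adjusted p = 0.181 with cluster 3 left undivided). Src family kinases, death-associated kinases, relatives of Cdk5, intermediate filaments and copines had 0 or 1 gene that rose and 1 or 2 that fell.

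**Figure D5:**
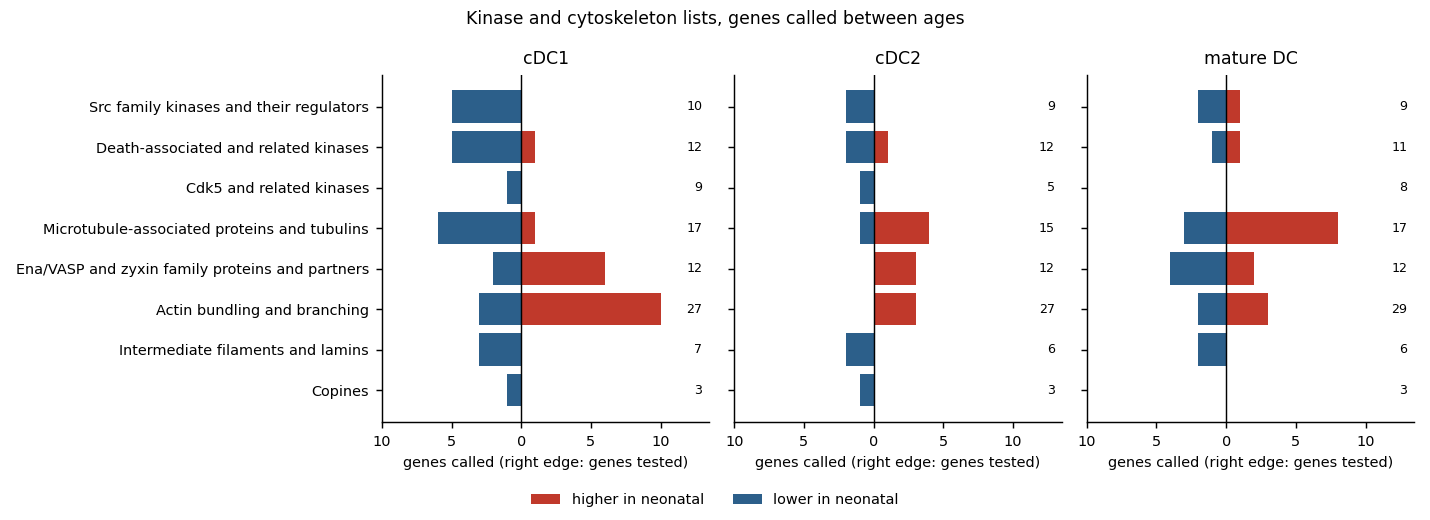
Number of genes called between ages (edgeR adjusted p under 0.05) on each of 8 lists in cDC1, cDC2 and mature DC; bars to the right count genes higher in neonates, bars to the left genes lower in neonates, and the numbers at the right edge count genes tested. Tubulins lean to the right in mature DC (8 against 3) and to the left in cDC1 (1 against 6).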

How the data were processed

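Droplet libraries of sorted YFP+ lung cells from 2 neonatal and 2 adult pools were analysed. The deposited matrix holds UMI counts per gene and barcode (14710 barcodes, 32285 genes, 2 hashtags), and the submitters' processing notes name Cell Ranger 6.1.2, Seurat 4.2.0 and mm10. Pools were read from the barcode suffix. The cell filter asked for 500 genes and 1000 UMIs or more, with mitochondrial UMIs not above 10%. Predicted doublets (scanpy's Scrublet, per age) and cells with over 20% of the other hashtag were removed, and 12740 cells remained. Cells were clustered with scanpy 1.11.5 and leidenalg 0.10.2 (2733 variable genes without the members, 30 components, 15 neighbours, resolution 1), and clusters were named by markers. Cluster 3, whose leading genes held cDC2 and C1q macrophage markers, was divided by the clusters at resolution 2, a step chosen after seeing the data.

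UMIs were summed per class and pool, and classes with 20 or more cells in every pool were tested with edgeR 4.0.16 (quasi-likelihood, TMM, filterByExpr, Benjamini-Hochberg over all genes). The test was tried on simulated data first. Only 2 pools per age exist, so an exact permutation test of a single value cannot reach 0.05; the smallest two-sided p it allows is 0.333. Ratios are pooled CPM with exact 95% intervals, and floors are 3 counts. DESeq2 1.42.0 and the other alternatives are given in the closing section. Of each list, up to 3 called genes per DC class were eligible for naming, by smallest p, with 20 CPM or more in the higher age and no overlap of pools. For free RNA, a member's level in its source class was scaled by the tracer's level in another class over that in the source class. Of the 10 lists, 2 are counted in the totals but not reported one by one here. Members and lists were chosen with earlier results of these data known. Promoters come from RefSeq on GRCm38.p6, and 32235 of the 32285 gene identifiers matched the GRCm38 annotation.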

Additional observations from a re-analysis of the deposited data

Results flagged for a closer look

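Some log2 ratios of neonatal over adult had opposite signs in different classes, and none of these differences was tested. For Dapk2, the log2 ratio of neonatal over adult was 5.10 in cDC1 and -0.44 in NK cells, a difference of 5.54. For Rhoh it was 2.47 in cDC1 and -0.76 in NK cells, a difference of 3.23. Neither member passed the test in NK cells (edgeR adjusted p = 0.453 for Dapk2 and 0.115 for Rhoh), and the members were chosen on the DC values.

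Among the related genes, those called in opposite directions in 2 DC classes follow, as log2 fold changes of neonatal over adult. Src was 2.31 in mature DC and -3.38 in cDC1, a difference of 5.69. Tuba1a was 0.78 in mature DC, -1.43 in cDC1 and -0.52 in cDC2, which are differences of 2.20 and 1.29. Rhob was 1.09 in mature DC and -0.91 in cDC1, a difference of 2.00. Rnd3 was 1.34 in mature DC and -0.30 in cDC1, a difference of 1.64.

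Elmo1 was 1.08 in mature DC and -0.40 in cDC1, a difference of 1.48, and Map4 was 0.40 in mature DC and -0.49 in cDC1, a difference of 0.89. Dock8 was 0.56 in mature DC, -0.50 in cDC1 and -0.41 in cDC2, which are differences of 1.06 and 0.96. The actin-binding genes ran the other way: Tmsb4x was 0.44 in cDC1 and -0.44 in mature DC, a difference of 0.88, and Pfn1 was 0.23 in cDC1, 0.21 in cDC2 and -0.35 in mature DC, which are differences of 0.57 and 0.56.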

How the results depend on the processing

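Member ratios within DC were followed where a member had UMIs at both ages and not too few in all, which left 19. They kept their direction under all 178 alternatives that gave a ratio. Of these, 18 moved a log2 ratio by more than the spread between pools, by up to 2.69. Nothing is read from the kept direction, since the members were picked on this contrast. With DESeq2's Wald test, 23 related genes were lower in cDC1, 3 higher and 1 lower in cDC2 and 9 lower in mature DC, and 2 members were called in nonclassical monocytes, 0 in neutrophils and 0 in mast cells and basophils. With cells thinned to 1500 UMIs, 13 related genes were higher and 15 lower in cDC1, 2 and 1 in cDC2 and 12 and 9 in mature DC, and 2 members were called in nonclassical monocytes and 0 each in classical monocytes, neutrophils and mast cells and basophils. Without a filter on low counts, 1 member was called in NK cells. With at least 20 UMIs asked for in 2 pools, 0 were called in classical monocytes and 1 in neutrophils. With the mixed cDC2 cluster left undivided, an alternative chosen after seeing the data, 19 related genes were lower in cDC2. The share of all genes called is given for the main fits alone, so no count under an alternative can be set against it. The cause of these shifts was not tested.

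With 1 pool left out, related genes numbered 16 to 21 higher and 29 to 35 lower in cDC1, 6 to 8 and 3 to 10 in cDC2, and 18 to 21 and 10 to 21 in mature DC. Members called then numbered 2 to 3 in nonclassical monocytes, 1 each time in classical monocytes, 1 to 2 in neutrophils, 0 to 1 in C1q macrophages, 0 to 2 in mast cells and basophils, 0 to 1 in NK cells and 0 to 1 in T cells. The lone pool was then assumed to vary like the other age. The log2 fold change of Rhoh turned to 0.64 in nonclassical monocytes without adult pool 2 and to 0.13 when thinned (range with 1 pool left out -0.58 to 0.64), and in C1q macrophages to 0.43 without neonatal pool 2 and 0.045 without adult pool 1 (range -1.51 to 0.43). That of Cdk14 in cDC2 turned to 0.016 when thinned.

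Pools of the ages share only a hashtag number. With that number as a replicate block, 20 related genes were higher and 40 lower in cDC1, 10 and 9 in cDC2 and 25 and 21 in mature DC, and 4 members were called in nonclassical monocytes, 1 in classical monocytes, 2 in neutrophils and 1 in mast cells and basophils. The stricter cell filter could not be fitted for neutrophils and C1q macrophages. In adult DC, most members rested on under 20 UMIs per pool, which limits each ratio.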
